A study of Mus musculus with 12 samples.

Results

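7SK RNA and the proteins around it were followed through doxorubicin treatment of H9c2 cells, a line of cardiomyoblasts. The 7 genes examined were Rn7sk, which encodes 7SK RNA itself, its binding proteins Hexim1, Larp7 and Mepce, and the kinase Cdk9 with its cyclin partners Ccnt1 and Ccnt2. They were taken by gene name, 1 row each, from the 54345 genes of the expression table. The set was selected on FPKM values of these genes in the same 12 libraries, where Rn7sk had stood apart, so their levels are given as a description without any test. Other genes of the same pathway, whose values this choice did not use, were tested. They were listed by role, with earlier results of these data known.

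Poly(A) RNA was sequenced from cells harvested after 6 h in 4 groups of 3 libraries. Unt cells were untreated, DOX cells received doxorubicin, D_DXZ cells received doxorubicin with dexrazoxane, and D_MgHCF cells received doxorubicin with MgHCF NCs, a magnesium hexacyanoferrate nanocatalyst. The labels name a single wild-type line, H9c2(2-1), and place it in mouse, whereas the paper describes rat cardiomyoblasts. The reads were assigned to mouse genes of GRCm38. Doses for the sequenced cells are not given in the sources used here, and no group received dexrazoxane or MgHCF NCs without doxorubicin.

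P-TEFb is a kinase made of CDK9 and a T-type cyclin. It phosphorylates RNA polymerase II and the factors that hold it paused near the start of genes, and so releases the polymerase into elongation. 7SK is a nuclear RNA made by RNA polymerase III that holds part of this kinase in an inactive particle. MEPCE caps its 5′ end, LARP7 binds the run of uridines at its 3′ end, and HEXIM1 bound to the 5′ hairpin inhibits CDK9. Stress and DNA-damaging drugs are known to release P-TEFb from the particle, and in heart muscle cells P-TEFb is known for its part in hypertrophic growth.

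Both ends of the mouse Rn7sk transcript are shown because its level differed more between the groups than that of any other gene of the 7. The sequence was read from the GENCODE M21 transcripts and lies on the minus strand of GRCm38, chr9:78175303-78175633. The first stretch holds positions 1 to 120 from the 5′ end, and its capitals mark GATC (GAUC in the RNA), a motif known from the 5′ hairpin where HEXIM1 binds. The second stretch holds positions 292 to 331, and its capitals mark the final run of T (U in the RNA), the end that LARP7 binds.
Rn7sk 5′ end: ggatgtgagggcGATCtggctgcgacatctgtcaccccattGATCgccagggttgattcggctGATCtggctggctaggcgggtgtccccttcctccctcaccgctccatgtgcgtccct
Rn7sk 3′ end: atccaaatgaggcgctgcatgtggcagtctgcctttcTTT
The transcript is 331 bases long, has a GC content of 58.0% and ends in 3 T. GATC reads the same on both strands and occurs only at positions 13 to 16, 42 to 45 and 64 to 67. At least 3 copies of it within the first 331 bases are also found in 7.99% of the 129282 GENCODE M21 transcripts that are at least as long.

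The libraries held 16626514 to 19365119 reads on genes. Expression was given as FPKM, the fragments on a gene per kilobase of its length after a scaling of each library, and the median log2 difference between DOX and Unt over genes with a mean FPKM of at least 1 was 0.05 with this scaling. With each library instead brought to the same total (TPM), that median was -1.03, so a difference between groups is relative to the authors' scaling unless another is named. Replicates of D_MgHCF correlated less with each other, with Pearson's r of log2(FPKM + 1) from 0.942 to 0.9841, than those of the other groups, in which r was at least 0.9895. Of 10 myoblast and heart muscle markers, 6 were below 0.5 FPKM in every library, namely Myod1, Myf5, Myog, Nkx2-5, Actc1 and Myh6. The summed level of the 10 was 12.3 to 13.4 FPKM in the Unt libraries and 16.8 to 28.1 in those of D_MgHCF, and lower in DOX (4.12 to 6.64) and in D_DXZ (3.79 to 5.62). Most of this sum was Gata4, with means of 10.3 FPKM in Unt, 3.35 in DOX, 2.93 in D_DXZ and 19.2 in D_MgHCF, whereas Tnnt2 was higher in DOX (0.903) than in Unt (0.133), and Des and Mef2c averaged less in D_MgHCF than in Unt. The sum of 4 fibroblast markers was 45.1 to 51.1 FPKM in Unt libraries and 22.0 to 39.6 in D_MgHCF, and higher in DOX (97.4 to 122.0) and in D_DXZ (76.7 to 103.3), while that of 4 markers of blood, endothelial and epithelial cells reached 1.17 at most. Col1a1 and Col1a2 made up nearly all of the fibroblast sum, and Pdgfra instead averaged 0.718 FPKM in Unt and 0.352 in DOX, and Col1a1 19.98 in Unt and 23.7 in D_MgHCF. The part of these markers in the results was not tested, and in these bulk samples fewer cells of a type and less RNA per cell cannot be told apart.

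Rn7sk was low in the Unt and D_MgHCF libraries, and far higher in those of DOX and D_DXZ. The libraries were made from poly(A) RNA, and the RNA of Rn7sk has no poly(A) tail. Its values therefore describe what was captured in the libraries and cannot be read as its amount in the cells. Whether the groups differed in that amount or in its capture was not tested. The 3 Unt libraries held 3.36, 1.51 and 2.72 FPKM (28, 12 and 22 reads). The DOX libraries held 1143, 1992 and 2800 FPKM (5742, 8459 and 10722 reads). All 3 were at least 339.9 times the highest Unt library, and the ratio of the group means was 781. The reads on Rn7sk were 0.0297% to 0.0600% of all reads on genes in DOX, compared with 0.000154% at most in Unt.

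With dexrazoxane, Rn7sk stood at 1364, 844 and 1429 FPKM. These libraries overlapped those of DOX, and the mean of 1212 ± 320.5 (SD, n = 3) was 0.613 times that of DOX, 1978 ± 829 (SD, n = 3). Both groups therefore lay far above Unt, with a ratio of 479 for D_DXZ. With MgHCF NCs the levels were 6.47, 2.37 and 3.82 FPKM (45, 20 and 31 reads). They overlapped the Unt libraries, with a ratio of means of 1.67, and the mean was 469 times lower than in DOX and 287 times lower than in D_DXZ. On the log2(FPKM + 1) scale, where the pseudocount of 1 shortens the distance from the low groups, the differences were 9.07 for DOX and 8.42 for D_DXZ against Unt and -8.55 for D_MgHCF against DOX, each with a SE of 0.39.

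**Figure D1:**
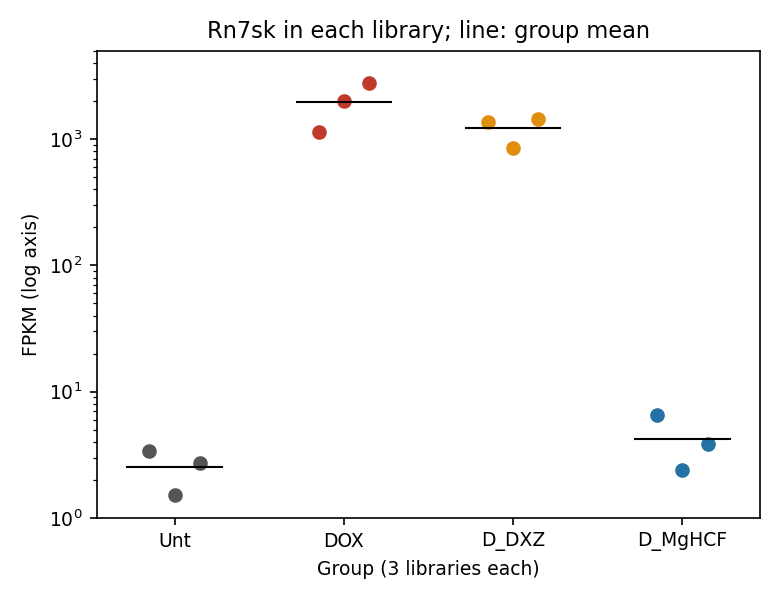
Rn7sk in each of the 12 libraries, as FPKM on a log axis, with 3 points a group and a line at the group mean. The DOX and D_DXZ libraries lie between 844 and 2800 FPKM, and the Unt and D_MgHCF libraries between 1.51 and 6.47 FPKM.

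Because genes resembling Rn7sk could take or give reads, they were searched among the annotated mouse transcripts. No rat sequence was searched, so copies in a rat genome are not covered. In all, 39 other genes matched Rn7sk over 100 bases or longer with an identity of 80% or above. Of these, 28 had no read in any library and 11 had at least 1. Together they held 9 to 10 reads in each Unt library and 4 to 9 in each of D_MgHCF, against 23 to 48 for DOX and 15 to 19 for D_DXZ. The closest, Gm24447, is identical to Rn7sk over 241 bases. It held 14, 22 and 43 reads in DOX and 12, 16 and 15 in D_DXZ, and none in Unt or D_MgHCF, where 0 reads allow up to 3 in a library by counting error alone. Since these 241 bases are identical, its reads cannot be told apart from those of Rn7sk.

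7SK RNA has no poly(A) tail, so the other RNAs on a list of 23 that lack one were read beside it. The table held 20 of them, and 8 had an FPKM above 0 in at least 3 libraries. Scarna2, a Cajal body RNA that guides modification of spliceosomal RNA, held 8.12, 7.34 and 12.3 FPKM in DOX and 7.48, 8.29 and 9.04 in D_DXZ. It stood at 0.384, 0 and 0 FPKM in Unt and at 0, 0 and 0.0984 in D_MgHCF, so, as for Rn7sk, its DOX and D_DXZ libraries lay above those of the other groups, at far lower levels, and its Unt and D_MgHCF libraries overlapped. Rnu73b, a small nucleolar RNA, had another order, with 7.28, 9.99 and 7.49 FPKM in Unt and 0, 5.49 and 0 in DOX. These were 13, 17 and 13 reads in Unt and 0, 5 and 0 in DOX.
Rnu12, the U12 RNA of the minor spliceosome, was at most 0.829 FPKM in Unt, DOX and D_DXZ, and stood at 11.0, 3.38 and 0.270 in D_MgHCF (35, 13 and 1 reads). Terc, the telomerase RNA, ranged from 0.0963 to 3.15 FPKM over all groups. Snord118, the U8 RNA of ribosome assembly, was at 0.640 to 2.31 FPKM in DOX, at 0.555 to 1.13 in D_DXZ and at 0 in Unt and D_MgHCF. Its DOX libraries held 3, 4 and 1 reads and those of D_DXZ 2, 2 and 1. Such counts lie at or near the 3 reads that 0 reads allow. The largest of these values, 12.3 FPKM, lay far below the Rn7sk levels of DOX and D_DXZ.

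The expressed genes around Rn7sk had other orders of groups. Of 9 other genes within 100 kb, 6 had an FPKM above 0 in at least 3 libraries. Gsta4, a glutathione transferase, averaged 22.6 ± 2.03 FPKM in Unt, 93.2 ± 4.95 in DOX, 65.0 ± 11.4 in D_DXZ and 94.0 ± 3.62 in D_MgHCF (SD, n = 3), and was thus high in D_MgHCF, where Rn7sk was low. Fbxo9, an F-box protein of ubiquitin ligases, had group means from 8.14 to 11.6 FPKM, and Ick, a protein kinase of cilia, from 2.18 to 3.19. The long noncoding RNA C920006O11Rik, whose annotated span comes nearest to Rn7sk on the opposite strand, averaged 0.438 FPKM in DOX against 0.950 in Unt. Gsta1 had at most 0.181 FPKM in any library.

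Among the proteins that bind 7SK, the mRNA levels did not move together. Hexim1 encodes the inhibitor of CDK9 in the particle and is itself known as a gene that responds to P-TEFb activity. Its 3 Unt libraries held 12.0, 12.5 and 12.7 FPKM and the DOX libraries 20.8, 18.9 and 15.8. With dexrazoxane it stood at 29.7, 42.5 and 37.5 FPKM, and with MgHCF NCs at 93.9, 73.2 and 22.8. All 3 libraries of DOX lay above Unt, and all 3 of D_DXZ and of D_MgHCF lay above DOX, while D_DXZ and D_MgHCF overlapped. The ratios of means against Unt were 1.49 in DOX, 2.94 in D_DXZ and 5.09 in D_MgHCF.

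The D_MgHCF libraries of Hexim1 were the most widely spread of any group, 63.3 ± 36.5 FPKM (SD, n = 3). Without D_MgHCF replicate 3, the lowest, the log2 difference from Unt was 2.64 instead of 2.04 (SE 0.41) and that from D_DXZ was 1.17 instead of 0.57, which was 0.18 without D_MgHCF replicate 1. The small difference of Hexim1 between DOX and Unt, 0.53 on the log2(FPKM + 1) scale, turned to -0.75 when libraries were brought to the same total and to -0.36 when FPKM were computed over the summed reads. Under both scalings it still lay 0.28 and 0.33 above the median of genes with a mean FPKM of at least 1. Hexim2, the related inhibitor, lies beside Hexim1 on chromosome 11 and, as a gene outside the 7, was tested. It fell from 2.44 ± 0.109 FPKM in Unt to 0.811 ± 0.333 in DOX (SD, n = 3), with a log2 difference of -0.94 (SE 0.20, adjusted p = 0.00279 in limma), and was at 2.81 ± 1.00 in D_MgHCF, higher than in DOX (adjusted p = 0.0012). These calls of Hexim2 held under the 4 other scalings.

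Larp7 encodes the protein that guards the 3′ end of 7SK. It held 33.5, 33.8 and 29.3 FPKM in Unt and 63.7, 78.9 and 80.9 in DOX. Levels were 57.1, 64.9 and 69.2 FPKM in D_DXZ and 21.5, 18.6 and 17.2 in D_MgHCF. The DOX and D_DXZ libraries overlapped and all lay above Unt, at 2.31 and 1.98 times its mean, whereas all 3 D_MgHCF libraries lay below Unt, at 0.593 times its mean. The difference of Larp7 from Unt, 1.18 in DOX and 0.96 in D_DXZ on the log2 scale (SE 0.12), turned to -0.16 and -0.20 with TPM, and in DOX it was 0.15 with quantile normalization, so its direction against Unt rests on the scaling. Relative to the median of genes with a mean FPKM of at least 1, Larp7 lay 0.87 higher in DOX than in Unt with TPM. With quantile normalization it lay 0.12 higher. The lower level in D_MgHCF than in DOX kept its sign under each of these scalings, between -1.95 and -0.73.

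Mepce encodes the enzyme that caps 7SK. Its levels were 14.4, 14.5 and 17.1 FPKM in Unt and 4.38, 4.34 and 4.18 in DOX. They were 8.18, 8.76 and 7.82 FPKM in D_DXZ and 14.3, 17.8 and 12.1 in D_MgHCF. The DOX libraries were the lowest and lay close together, those of D_DXZ stood between DOX and Unt without overlapping either, and those of D_MgHCF overlapped Unt. The mean in DOX was 3.57 times lower than in Unt, and the log2 difference of -1.62 (SE 0.13) ranged from -2.83 to -1.56 over the scalings. Mepce and Larp7, which both keep 7SK stable, thus differed from Unt in opposite directions in DOX with the authors' scaling.

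The catalytic subunit Cdk9 held 13.4, 13.7 and 15.2 FPKM in Unt and 8.24, 8.32 and 8.17 in DOX. It stood at 8.66, 7.76 and 7.28 FPKM in D_DXZ and at 12.5, 16.1 and 16.7 in D_MgHCF. DOX and D_DXZ overlapped, D_MgHCF and Unt overlapped, and the first pair lay wholly below the second. The mean in DOX was 0.586 times that in Unt, and the log2 difference of -0.70 (SE 0.11) lay between -1.96 and -0.70 over the scalings.

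The cyclins, which activate CDK9 and bring it to its substrates, were lower in DOX as well. Ccnt1, which encodes cyclin T1, held 9.11, 8.79 and 8.39 FPKM in Unt and 4.29, 3.80 and 3.36 in DOX. It stood at 5.33, 4.92 and 5.41 FPKM in D_DXZ and at 6.13, 6.90 and 8.82 in D_MgHCF. All DOX libraries lay below all others, those of D_DXZ lay below those of Unt and of D_MgHCF, and D_MgHCF overlapped Unt.

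Ccnt2 encodes cyclin T2. Its levels were 4.55, 4.25 and 3.71 FPKM in Unt and 1.66, 1.80 and 1.51 in DOX. They were 2.78, 3.03 and 2.77 FPKM in D_DXZ and 2.71, 2.84 and 2.00 in D_MgHCF. DOX was again the lowest group without overlap, but here D_MgHCF also lay below Unt in all 3 libraries, at 0.604 times its mean, and overlapped D_DXZ. The log2 difference of Ccnt2 between D_MgHCF and DOX was 0.40 (SE 0.13) and turned to -0.01 with quantile normalization. Within each group, the mean FPKM of Cdk9 was above that of Ccnt1 and that of Ccnt1 above that of Ccnt2, with no overlap between these genes' libraries in any group.

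**Figure D2:**
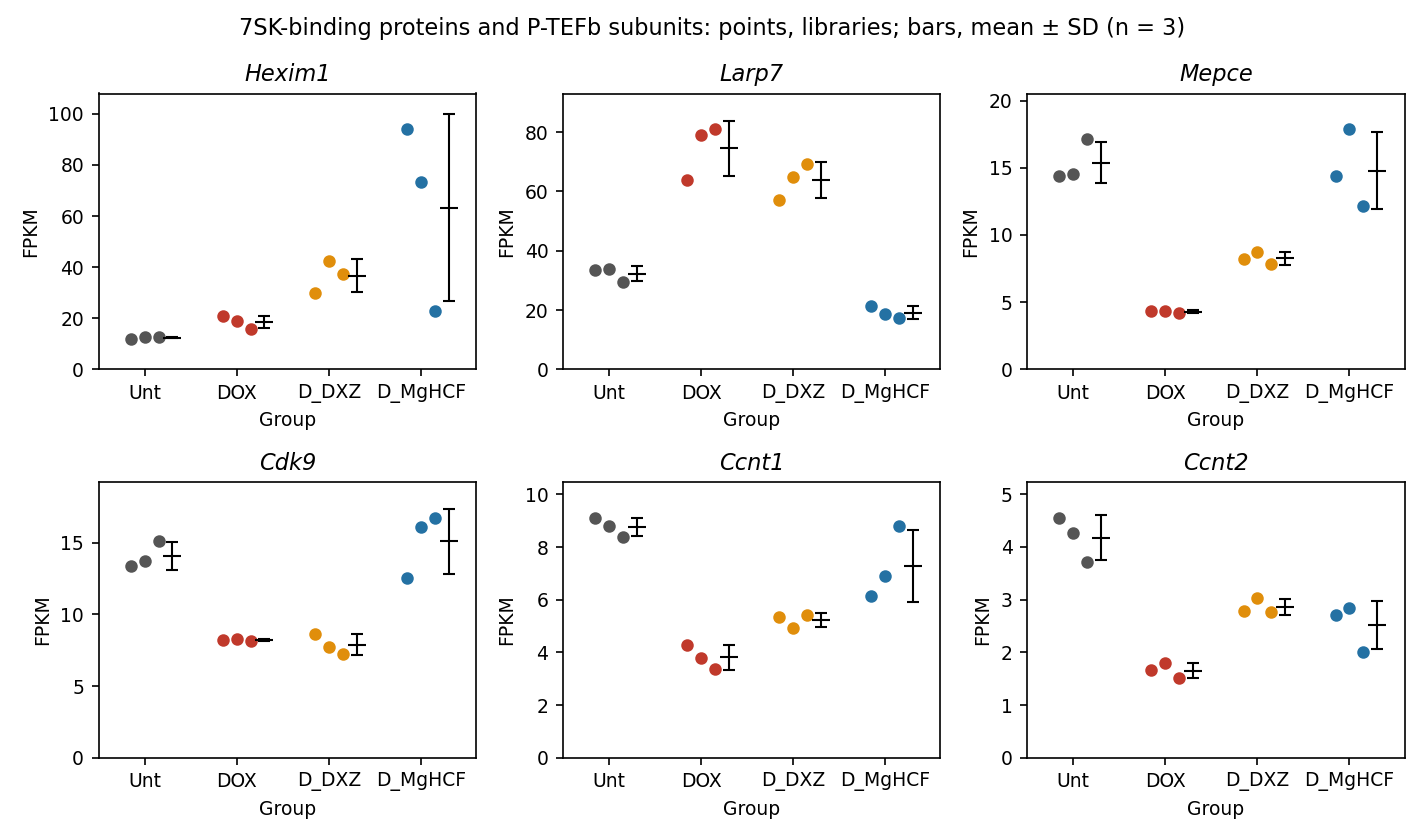
FPKM of the 6 protein genes in each library (points, 3 a group) with the mean and SD of each group (bars) on axes that start at 0. Larp7 is high in DOX and D_DXZ, Mepce, Ccnt1 and Ccnt2 are lowest in DOX, Cdk9 is low in DOX and D_DXZ, and the D_MgHCF libraries of Hexim1 run from 22.8 to 93.9.

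Counted over the 7 genes, all 3 DOX libraries lay above Unt for 3 (Rn7sk, Hexim1 and Larp7) and below it for 4. Of all 25044 genes with an FPKM above 0 in at least 3 libraries, 25.3% were higher and 26.6% lower without overlap in this comparison. For D_DXZ against Unt the counts were also 3 higher and 4 lower, and the shares over all genes were 23.5% and 26.9%. Against DOX, D_DXZ was higher without overlap for Hexim1, Mepce, Ccnt1 and Ccnt2 and overlapped for the other 3. Over all genes, 7.66% were higher and 8.64% lower in that comparison.
D_MgHCF lay above DOX for 5 of the 7 and below it for Rn7sk and Larp7, with shares of 32.5% and 20.7% over all genes. Against Unt, D_MgHCF overlapped for 4, was higher for Hexim1, and was lower for Larp7 and Ccnt2 (29.6% higher and 19.3% lower over all genes). Against D_DXZ it was higher for Mepce, Cdk9 and Ccnt1, lower for Rn7sk and Larp7 and overlapping for Hexim1 and Ccnt2 (30.6% and 19.8%). These comparisons share libraries and the genes were chosen with their levels known, so nothing further is read from the counts.

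**Figure D3:**
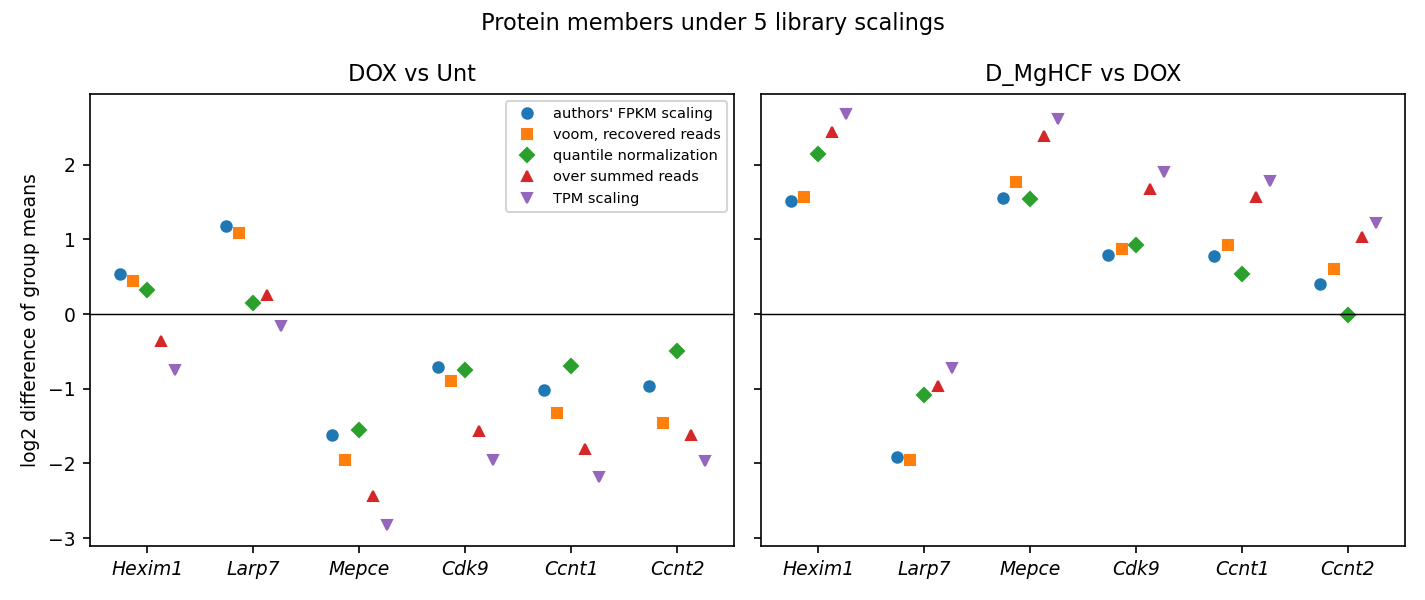
The log2 difference of group means for the 6 protein genes in DOX against Unt and in D_MgHCF against DOX, with a marker for each of 5 library scalings and a line at 0. In DOX against Unt, Mepce, Cdk9, Ccnt1 and Ccnt2 are below 0 under all 5 scalings, while Hexim1 is below 0 under 2 and Larp7 under 1.

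Over the 12 libraries, log2(FPKM + 1) of Rn7sk had a Pearson's r of 0.92 with Larp7, -0.96 with Cdk9, -0.91 with Mepce, -0.91 with Ccnt1, -0.62 with Ccnt2 and 0.00 with Hexim1. The 12 points share 4 group levels, so these values describe the order of groups rather than 12 independent observations. Among 11517 genes with a mean FPKM of at least 1, the pattern of Rn7sk was most like those of Tnc (r = 0.992), Cdh2, Tpm1, Cald1 and Acat2 (r = 0.991 in each). Tpm1, a tropomyosin of actin filaments, averaged 71.1 FPKM in Unt, 464 in DOX, 384 in D_DXZ and 64.2 in D_MgHCF, so DOX and D_DXZ were the high groups, as for Rn7sk, with much smaller ratios, while its mean in D_MgHCF lay below Unt and that of Rn7sk above it. Hexim1 was most like Ppif (r = 0.973), which encodes the mitochondrial cyclophilin, followed by Gm12319, Aoc2, Gnmt and Lif (r = 0.952 to 0.964). Ppif averaged 4.76, 9.28, 12.8 and 25.2 FPKM in Unt, DOX, D_DXZ and D_MgHCF. Cdk9 was most like Gipc1 (r = 0.993), Sf3b4, Vps26b, Lrrc75a and Fbxo34 (r = 0.986 to 0.990).

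Of the other genes that act with P-TEFb, 48 were listed by role and tested with limma over the whole table at a Benjamini-Hochberg adjusted p under 0.05. In DOX against Unt, 12 rose and 24 fell, where 18.6% of all genes tested rose and 19.9% fell. All genes tested include those with values barely above 0, so these shares are not those of well expressed genes. With the filter at an FPKM of 1, 13 of the list rose and 25 fell. Over the table, 4608 genes then rose and 4471 fell, a slight excess of rises that the list did not share. Such counts, here and below, are to be set against roughly 11517 genes, the number with a mean FPKM of at least 1. A larger share of expressed genes than of all genes tested was therefore called. The median log2 difference of the list was -0.43 and that of all genes tested was 0. Among 13 genes that recruit P-TEFb to chromatin, which include bromodomain proteins and subunits of the super elongation complex, 10 fell and none rose, with a median of -1.27. From 9 to 11 of them fell when any library was left out, and 10 or 11 fell and at most 1 rose under the 4 other scalings. With TPM, 10034 of all 25044 genes tested fell as well.
Aff1, a scaffold of the super elongation complex, fell from 14.8 ± 0.821 FPKM in Unt to 3.12 ± 1.21 in DOX (SD, n = 3; log2 difference -1.98, SE 0.26, adjusted p = 0.000134). Leo1, a subunit of the PAF1 complex that travels with the polymerase, fell from 9.84 ± 0.318 to 2.28 ± 0.294 FPKM (log2 difference -1.73, SE 0.16, adjusted p = 2.05e-05). Iws1, an elongation factor that binds SPT6, fell by 1.79 on the log2 scale (SE 0.34, adjusted p = 0.00172).

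The 12 listed genes that bind 7SK or release P-TEFb from it went both ways in DOX, with 5 higher, 3 lower and 4 not called. The largest rise was in Hnrnpa2b1, which like Hnrnpa1 encodes an RNA-binding protein that takes up 7SK freed of P-TEFb. Hnrnpa2b1 went from 98.1 ± 5.78 to 401.3 ± 56.6 FPKM (log2 difference 2.01, SE 0.22, adjusted p = 4.15e-05) and Hnrnpa1 from 149.1 ± 6.84 to 461.1 ± 68.2 (log2 difference 1.61, SE 0.15, adjusted p = 2.16e-05). Ssb, the La protein that binds the 3′ ends of new polymerase III transcripts, rose from 46.7 ± 10.3 to 146.3 ± 19.8 FPKM (adjusted p = 0.000277), and Ppp1ca, the catalytic subunit of a phosphatase, from 6.25 ± 0.550 to 20.8 ± 1.12 (adjusted p = 1.06e-05).
These 4 rises rest on the scaling. With quantile normalization Hnrnpa1 had a log2 difference of -0.08 (adjusted p = 0.503), Hnrnpa2b1 of 0.39 (adjusted p = 0.0984) and Ssb of 0.32 (adjusted p = 0.432), and with TPM Ppp1ca had one of 0.34 (adjusted p = 0.0503). Of the remaining roles, 3 of 6 pausing factors rose and 1 fell, 1 of 6 other kinases and cyclins that act on the polymerase tail rose and 4 fell, and 3 of 11 genes of elongation complexes rose and 6 fell. Beside the role counts of this paragraph, 18.6% of all genes tested rose and 19.9% fell, with higher shares among expressed genes. Nothing further is read from these small counts.

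No gene of the list passed the adjusted threshold between D_DXZ and DOX in limma, nor did any of the 25044 genes. At an unadjusted p under 0.05, 3 genes of the list were higher and 5 lower. Of all 25044 genes tested, 1143 were higher and 1245 lower at that threshold, so nothing further is read from these few genes. The voom fit of the recovered reads also called none of the list after adjustment. Before adjustment it called 5, for which the share over all genes was not counted. In D_DXZ against Unt, 11 genes rose and 20 fell (15.9% and 18.0% of all genes tested). These counts were 11 and 24 under the filter at an FPKM of 1, where 4079 genes rose and 4323 fell over the table. The 4 largest rises were again in Hnrnpa2b1, Hnrnpa1, Ssb and Ppp1ca, with log2 differences from 1.26 to 1.85, and each lost its call under at least 1 other scaling. Among the largest falls were those of Aff1, Leo1 and Brd2, a bromodomain protein, from -1.77 to -1.36, with adjusted p of 0.000432 or less. Since both comparisons use the same Unt libraries, they are given side by side without a test of their likeness.

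With MgHCF NCs, 19 genes of the list rose and 20 fell against DOX, where 31.4% of all genes tested rose and 20.1% fell. Under the filter at an FPKM of 1, 18 of the list rose and 20 fell. Over the table, 4462 genes then rose and 4877 fell, a higher share of falls than over all genes tested. Set against roughly 11517 expressed genes, these shares lie near those of the 48 listed genes in both directions. With all genes tested, 9 of the 13 genes that recruit P-TEFb rose and none fell, with 8 to 13 rising and none falling under the other scalings. With TPM, 13331 of all 25044 genes tested rose and 1679 fell. Of the 12 that bind or release 7SK, 11 fell and 1, Hexim2, rose. This count was 10 or 11 when any library was left out, but 6 with TPM, 7 over the summed reads, 8 with quantile normalization and 10 with voom.
Aff1 rose from 3.12 ± 1.21 FPKM in DOX to 12.7 ± 3.10 in D_MgHCF (SD, n = 3; log2 difference 1.75, SE 0.26, adjusted p = 0.000266). Ell, an elongation factor of the same complex, rose from 3.71 ± 1.29 to 13.3 ± 2.23 FPKM (adjusted p = 7.03e-05), and Brd2 from 13.5 ± 0.999 to 39.4 ± 7.14 (adjusted p = 2.94e-05). Leo1 rose by 1.54 on the log2 scale (SE 0.16, adjusted p = 3.23e-05).
Hnrnpa2b1 fell from 401.3 ± 56.6 to 61.7 ± 21.1 FPKM and Hnrnpa1 from 461.1 ± 68.2 to 69.4 ± 12.1, both with a log2 difference of -2.72 (adjusted p = 7.49e-06 and 2.43e-06). Nelfcd, a subunit of the NELF complex that holds the paused polymerase, fell from 37.6 ± 4.39 to 6.91 ± 2.25 FPKM (adjusted p = 8.15e-06). Syncrip, an RNA-binding protein found on 7SK, fell from 22.9 ± 4.49 to 3.94 ± 1.87 (adjusted p = 2.39e-05). These 8 calls held under the 4 other scalings.

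**Figure D4:**
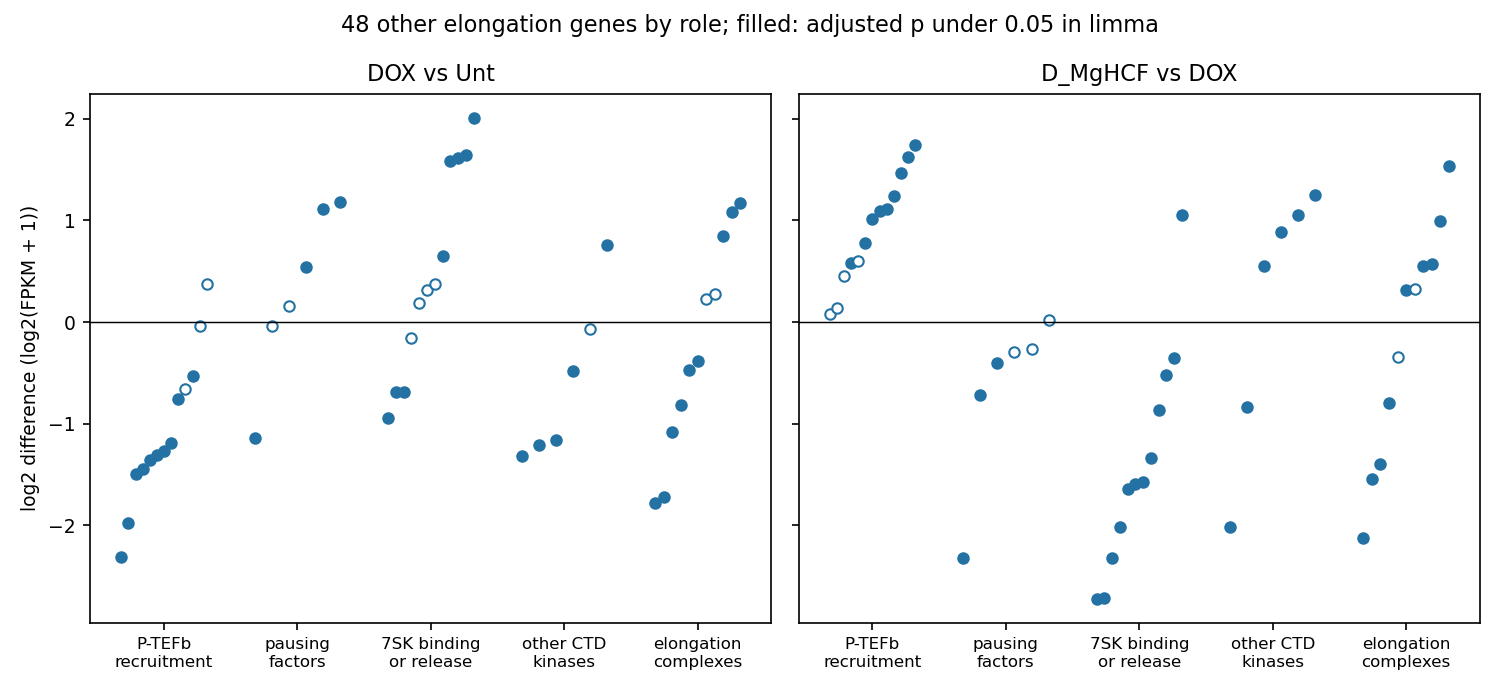
Log2 differences of the 48 other genes by role in DOX against Unt and in D_MgHCF against DOX, each point a gene, filled where the adjusted p in limma was under 0.05. Of the 13 genes that recruit P-TEFb, 10 fell in the first panel and 9 rose in the second, and of the 12 that bind or release 7SK, 11 fell in the second.

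D_MgHCF did not match Unt across the list. Against Unt, 6 genes rose and 21 fell (24.3% and 15.7% of all genes tested), and 8 of the 12 genes that bind or release 7SK fell. The list counts were 5 and 22 under the filter at an FPKM of 1, where 3064 genes rose and 3714 fell over the table. Eaf2, a partner of ELL, rose from 0.246 ± 0.0322 to 2.53 ± 0.682 FPKM (log2 difference 1.48, SE 0.13, adjusted p = 4.6e-05), followed by Supt4a, a subunit of the DSIF pausing factor, Paf1 and Ccnk, cyclin K, with log2 differences of 0.88, 0.82 and 0.77. Syncrip fell most, from 18.0 ± 1.09 to 3.94 ± 1.87 FPKM (log2 difference -2.01, SE 0.23, adjusted p = 0.000153), and falls were also found in Nelfa and Srsf2 (-1.86 and -1.50).
Against D_DXZ, 17 genes rose and 19 fell (29.4% and 19.0% of all genes tested). With the filter at an FPKM of 1 they were 17 and 20, where 4071 genes rose and 4673 fell over the table. The largest rises were in Aff1, Eaf2, Brd2 and Ell, with log2 differences from 1.30 to 1.54, and the largest falls in Hnrnpa1, Hnrnpa2b1, Syncrip and Nelfcd, from -2.57 to -2.12, with adjusted p of 0.000701 or less in all 8. When D_MgHCF and D_DXZ were fitted without the other groups, 11 of the list rose, and 4326 genes rose over the table. All these calls of named genes against Unt and against D_DXZ held under the 4 other scalings.

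Overlapping and similar genes limit a few of these values, as the kit is not described as marking strand. Ccnt1 overlaps the antisense transcript 9330020H09Rik, which had 0.142 to 1.70 FPKM, and their reads cannot be told apart over 648 shared bases. It also shares 169 bases at 95.3% identity with Dnajb14, which held 132 to 740 reads, and with Ppp1r16b, which held at most 7. Larp7 spans 5 genes of the Mir302 cluster on the opposite strand, each with at most 2.62 FPKM, and Gm12666 resembles Larp7 at 98.4% over 764 bases but held at most 6 reads. Cdk9 contains 2 microRNA genes that had no reads, and shares 151 bases at 95.4% identity with Stx5a, which held 358 to 2931 reads. Hexim1, Mepce and Ccnt2 had no match of 150 bases or longer at an identity of 95% or above.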

How the data were processed

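RNA of H9c2 cells was enriched on poly-T beads, made into NEBNext Ultra libraries and sequenced as 150 bp pairs. The submitters' processing notes name HISAT2 2.0.5 and mm10, and the counting program and annotation release are not given in the sources used here. The authors deposited FPKM per gene. Multiplied by gene length, the values of a library fell on multiples of the same step, from which whole reads were recovered for 100% of values (tolerance 0.001). No sample column was left unused (0).

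Groups and replicate numbers came from the sample titles, and nothing states that replicates were separate cultures, so p-values measure the spread between these libraries, which may be technical. limma 3.58.1 (R 4.3.3, lmFit, eBayes with trend) was fitted to log2(FPKM + 1) over the 4 groups for the 25044 genes detected (FPKM above 0) in 3 libraries or more, with Benjamini-Hochberg adjustment over all of them and calls at 0.05. An SE is that of the fit. The test was checked on simulated reads with the same spread setting for all genes and groups. Of 200 genes planted with a log2 difference of 2 up or down, 171 were called with the right sign. The simulation held neither the wider spread of D_MgHCF nor the scaling differences between groups, so it does not cover them.

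The 7 genes and the lists were chosen with earlier results of these data known. Genes of the 48 were named as up to 4 largest rises and 4 largest falls per comparison among called genes whose higher group had a mean FPKM of 1 or above, plus Hexim2 and Ssb. One listed gene that this rule would name is not reported singly here. Of RNAs without a tail and of neighbours within 100 kb, up to 5 with the highest mean were named, and for Rn7sk, Hexim1 and Cdk9 the 5 genes with the highest r. Similar genes were searched with BLAST 2.17.0 in GENCODE M21 transcripts. Alternatives were TPM scaling, a pseudocount of 0.1, no filter or one at an FPKM of 1, calls at unadjusted p, a block for the replicate number, fitting only the 2 groups compared, quantile normalization, voom with TMM factors on recovered reads and each library left out. FPKM over the summed reads was chosen after seeing the data.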

Additional observations from a re-analysis of the deposited data

How the results depend on the processing

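Library scaling was the choice that moved results most. In DOX against Unt the listed genes that rose were 2 with TPM, 5 with quantile normalization and 4 over the summed reads instead of 12, and those that fell were 37 with TPM instead of 24. Of all 25044 genes tested, 1099, 4170 and 2075 rose in the same order instead of 4649. With TPM 10034 of them fell instead of 4973. In D_DXZ against Unt the rises were 2, 3 and 5 in the same order instead of 11, and the falls 37 with TPM and 34 over the summed reads instead of 20. Over all genes the rises were 917, 3517 and 1913 instead of 3979. The falls were 9910 with TPM and 7946 over the summed reads instead of 4515. In D_MgHCF against DOX, 31 rose with TPM, and 10 fell with TPM and 11 over the summed reads. Over all genes, 13331 rose with TPM instead of 7863, and 1679 fell with TPM and 2401 over the summed reads instead of 5027. In D_MgHCF against D_DXZ, 26 rose with TPM, 10 fell with TPM and 12 over the summed reads, and 11 rose in a fit of the 2 groups alone. Over all genes, 12648 rose with TPM, 1538 fell with TPM and 2382 over the summed reads, and 4326 rose in that fit. With TPM and over the summed reads, the whole table thus moved in the same direction as the list. At an unadjusted p, D_DXZ differed from DOX in 3 listed genes upwards and 5 downwards, and in 1143 and 1245 of all genes tested. The log2 difference of Rn7sk with TPM, quantile normalization and over the summed reads was 7.91, 8.25 and 8.24 in DOX against Unt, 7.43, 7.89 and 7.78 in D_DXZ against Unt (8.88 with a pseudocount of 0.1), -7.45, -7.67 and -7.67 in D_MgHCF against DOX, and -6.98, -7.30 and -7.21 in D_MgHCF against D_DXZ. Hexim1 in DOX against Unt reversed to -0.75 with TPM and -0.36 over the summed reads, Larp7 reversed with TPM to -0.16 in DOX and -0.20 in D_DXZ against Unt, and Ccnt2 in D_MgHCF against DOX was -0.0082 with quantile normalization. Which of these scalings is nearest to RNA per cell was not tested. Of 756 alternative values for the 6 protein genes, 661 stayed within the spread between replicates, 90 moved beyond it (82 of them under another scaling) and 5 reversed, which counts a change of sign only where the libraries of the 2 groups did not overlap. The sign also changed in 9 values where they overlapped, of which Ccnt2 in D_MgHCF against D_DXZ went furthest, from -0.14 to 0.63 with TPM and 0.43 over the summed reads.

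Leaving out a library in turn, the listed genes that rose and fell ranged from 12 to 15 and 22 to 25 in DOX against Unt, 17 to 20 and 18 to 23 in D_MgHCF against DOX, 8 to 13 and 18 to 27 in D_DXZ against Unt, 6 to 7 and 19 to 26 in D_MgHCF against Unt, and 15 to 19 and 18 to 24 in D_MgHCF against D_DXZ, with 0 in D_DXZ against DOX. Rn7sk ranged from 8.78 to 9.42 in DOX against Unt and from -8.90 to -8.25 in D_MgHCF against DOX.

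With the replicate number as a block, 13 listed genes rose and 24 fell in DOX against Unt, and 18 rose and 20 fell in D_MgHCF against DOX. Over all genes tested, these counts were 4572 and 4833 in the first comparison and 7648 and 4970 in the second. Same-numbered libraries did not deviate together throughout (r from -0.408 to 0.422 over 18 pairs, 2 of them over 0.1), so the numbers were not taken as pairs. Both pairs over 0.1 joined DOX with D_DXZ, at 0.422 for replicate 1 and 0.352 for replicate 3, against 0.0525 for replicate 2. Whether these 2 groups were handled in pairs was not tested. With the block, 0 genes of the table were called between them. Unt and D_MgHCF libraries held 12 to 45 reads on Rn7sk, which limits the precision of its low levels.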
